A study of Mus musculus with 18 samples.

Results

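Dp16 mice carry an extra copy of the stretch of mouse chromosome 16 from Lipi to Zbtb21, a model of trisomy 21 because most genes of that stretch have their human counterparts on chromosome 21. The genes described here are a chosen list of protein-coding genes of that interval. Left out were interferon and interleukin receptors, their neighbours, Mx genes and genes grouped as regulators of transcription or chromatin. Usp16, which acts on a histone, and the zinc finger gene Zbtb21 were kept. The list held 38 symbols, and these were the symbols of 39 gene models of the 55385 in the deposited table. The 35 genes with a mean of 1 CPM or more, counts scaled to the library total, over all 18 libraries were used. Just inside that limit lay Pcp4 at a mean of 1.17 CPM, and just outside lay Rbm11 at 0.346 CPM. Tmprss2 had a mean of 0.0475 CPM, and Clic6 and a further Atp5o gene model had no read in any library. On GRCm38 the interval runs over chr16:75540514-97962622, which is 22.4 megabases and holds 384 gene models, 147 of them protein-coding. Of these protein-coding models 78 had a mean of 1 CPM or more, so the 35 are not all the expressed genes of the interval.

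Poly(A) RNA was sequenced from spleens of adult mice of 3 genotypes, with 6 animals in each, 3 male and 3 female. WT animals were C57BL/6J, with 2 copies of the interval. Dp16 animals have 3 copies of every gene described here, and Dp16_2xIFNRs animals are Dp16 mice whose interferon receptor genes are back at 2 copies, so that they too have 3 copies of every gene described here. No animal was treated, and the label that gives ages of 17.1 to 18.0 in days post conception goes against an adult tissue and is not interpreted. Library totals ran from 33998427 to 53021480 counts. Bulk tissue was measured, so fewer cells of a type and less RNA per cell cannot be told apart.

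A gene present in 3 copies instead of 2 makes 1.5 times as much transcript where each copy is equally active in the same cells, and this copy ratio is the yardstick used throughout. The interval encodes proteins of many kinds: subunits of ATP synthase and of the mitochondrial ribosome, a subunit of the cytosolic chaperonin CCT, ubiquitin ligases and proteases, the amyloid precursor protein, adhesion molecules and extracellular proteases. Many of them work in complexes whose other subunits are encoded on other chromosomes at 2 copies. In the adult mouse the spleen filters blood, houses B and T lymphocytes and makes red cells, granulocytes and platelets, so its transcripts come from very different cells.

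Sequences upstream of 5 of these genes are shown because they stand for the range of the results: Psmg1, Atp5o and Cct8 were at about double the WT level, Mrps6 shares its upstream region with Slc5a3, which did not move with it, and Zbtb21 was near the WT level. They are from RefSeq on GRCm38.p6, written 5′ to 3′ on the gene's own strand. Bases of annotated exons were trimmed off. The region of Zbtb21 also lies just upstream of the C2cd2 gene model, on the same strand, and C2cd2 was higher with 3 copies. The regions are chr16:95990961-95991210 on the minus strand for Psmg1, chr16:91931688-91931880 on the minus strand for Atp5o, chr16:87495874-87495998 on the minus strand for Cct8, chr16:92058086-92058269 on the plus strand for Mrps6 and chr16:97962623-97962872 on the minus strand for Zbtb21. Capitals mark the letters CCGGAAG, the core of the motif of the factor GABPA.
Psmg1: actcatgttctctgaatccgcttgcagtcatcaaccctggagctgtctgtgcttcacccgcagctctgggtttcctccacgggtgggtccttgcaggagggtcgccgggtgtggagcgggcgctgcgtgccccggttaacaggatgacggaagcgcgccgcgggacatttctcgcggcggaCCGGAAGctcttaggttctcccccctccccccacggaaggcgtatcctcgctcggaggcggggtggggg
Atp5o: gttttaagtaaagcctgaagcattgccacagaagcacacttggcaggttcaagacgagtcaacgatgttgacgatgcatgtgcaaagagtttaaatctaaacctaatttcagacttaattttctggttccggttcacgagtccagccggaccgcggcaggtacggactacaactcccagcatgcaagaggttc
Cct8: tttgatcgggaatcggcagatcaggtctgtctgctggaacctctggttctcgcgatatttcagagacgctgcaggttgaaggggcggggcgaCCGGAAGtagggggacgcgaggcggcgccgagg
Mrps6: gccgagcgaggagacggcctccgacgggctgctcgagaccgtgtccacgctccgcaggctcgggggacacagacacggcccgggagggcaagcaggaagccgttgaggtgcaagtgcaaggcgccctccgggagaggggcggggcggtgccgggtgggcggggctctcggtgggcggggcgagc
Zbtb21: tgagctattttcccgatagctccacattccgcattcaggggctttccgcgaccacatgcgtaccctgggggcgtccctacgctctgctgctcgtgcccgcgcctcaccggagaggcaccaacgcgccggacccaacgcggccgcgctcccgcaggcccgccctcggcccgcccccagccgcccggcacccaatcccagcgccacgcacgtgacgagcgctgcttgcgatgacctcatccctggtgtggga

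Of the 35 genes, 27 matched an entry of the promoter table. CCGGAAG was searched on both strands in the first 250 bases of each entry, before any trimming. It was in 5 of these 27, those of Atp5j, Cct8, Hlcs, Psmg1 and Usp16, and in 6.91% of all 32851 promoters. The 27 genes had 35 entries, while 6.91% is a share of entries and not of genes, so the shares are not alike. The genes with these letters ran from Hlcs, which did not pass the test, to Psmg1 at a 2.08-fold level. A match describes letters in the window and says nothing of a factor's binding.

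Most of the 35 genes were higher with 3 copies, but they did not share one fold. In a single edgeR quasi-likelihood fit of all 18 libraries, with Benjamini-Hochberg adjustment over the 18634 genes tested and sex as a term, 22 of 35 were higher in Dp16 than in WT and 0 were lower, where 16.6% of all tested genes were higher. Among the 113 tested genes of the interval, which include these 35 and models that are not protein-coding, the share was 61.1%. Of the other 48 protein-coding genes tested in the interval 39 were higher, or 81.25%, a larger share than the 62.9% of the 35. In Dp16_2xIFNRs against WT, 20 were higher and 0 lower, where the shares called higher were 17.3% of all genes and 48.7% of interval genes. Of the other 48 protein-coding genes 31 were higher there. With the mean of both 3-copy genotypes set against WT, which gives the narrowest intervals, 24 were higher and 0 lower. The shares called higher were then 19.2% of all genes and 60.2% of interval genes. Of these 24, Ttc3, Scaf4, Eva1c and Hunk were not called in Dp16_2xIFNRs against WT, and Urb1 and Bace2 were not called in Dp16 against WT. Below, calls are over both genotypes unless a comparison is named, and shares of interval genes are over all 113. At an unadjusted p below 0.05, Map3k7cl alone was lower, in Dp16_2xIFNRs against WT, and DESeq2 also called 0 lower in every comparison.

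The median of the 35 log2 folds was 0.49 in Dp16, 0.48 in Dp16_2xIFNRs and 0.48 over both, a 1.40-fold level, while the median of all tested genes over both was -0.01. The other 48 protein-coding genes tested in the interval had a median of 0.58, and 36 of them were higher. Per animal, the median of the 35 genes relative to the WT mean was between -0.09 and 0.06 (log2) in WT, between 0.35 and 0.63 in Dp16 and between 0.38 and 0.54 in Dp16_2xIFNRs. The 3-copy animals thus all lay above all WT animals on this median, and the 3-copy genotypes overlapped. Both comparisons with WT share the WT animals, so their likeness is not independent.

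Each 95% interval of the fold over both 3-copy genotypes was placed against the copy ratio. It lay wholly above 1.5 for 8 genes, included 1.5 for 13 and lay wholly below for 14, where the shares over the 113 interval genes were 17.7%, 52.2% and 30.1% and over all tested genes 4.34%, 30.8% and 64.9%. The 8 above were Atp5o, Psmg1, Btg3, Atp5j, Mis18a, Cct8, Mrpl39 and Usp25. Of the 14 below, 5 were still higher than in WT (Ltn1, Urb1, Bace2, Scaf4 and Ttc3) and 9 did not pass the test. In 13 genes every one of the 12 animals with 3 copies lay above the highest WT animal, where 4.91% of all genes and 31% of interval genes did so, and in 0 genes did all 12 lie below, where the share was 2.67%. Taken by genotype, 18 genes in Dp16 and 13 in Dp16_2xIFNRs lay above WT without overlap, where the shares were 8.48% and 6.83% of all genes and 43.4% and 33.6% of interval genes.

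**Figure D1:**
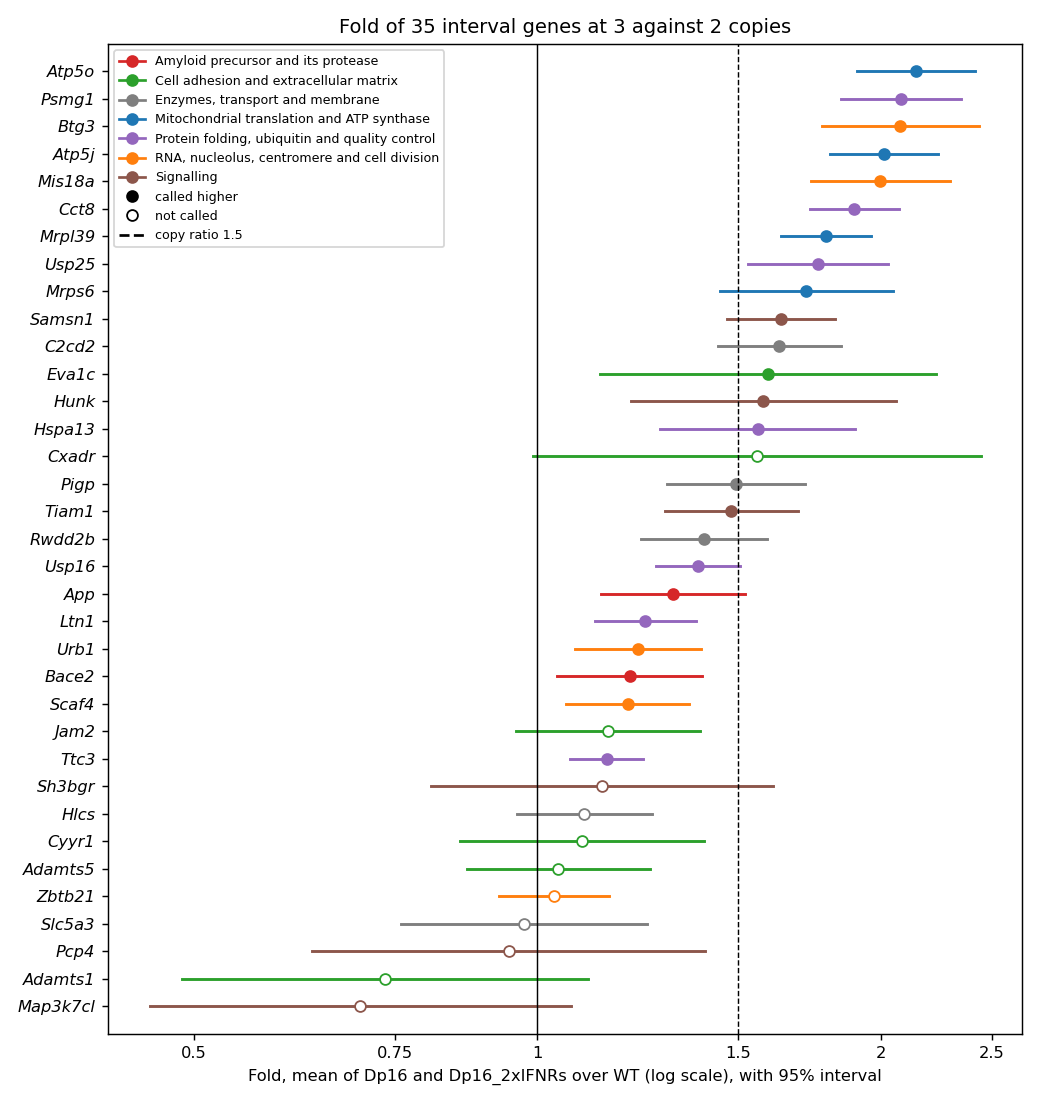
Fold of each of the 35 genes, as the mean of Dp16 and Dp16_2xIFNRs over WT, on a log axis with its 95% interval; colours give the role group, filled points passed the test and the dashed line is the copy ratio of 1.5. Folds run from 0.699 for Map3k7cl to 2.15 for Atp5o, with 8 intervals wholly right of the dashed line and 14 wholly left of it.

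The labels were checked first. Ifnar2, a subunit of the interferon alpha and beta receptor that lies in the interval, was at 87.97 CPM in WT, 141 in Dp16 and 93.7 in Dp16_2xIFNRs, and its Dp16 animals (134 to 154) lay above all others. Il10rb was at 79.0, 109 and 75.1 CPM, Ifnar1 at 87.2, 107 and 77.6 and Ifngr2 at 92.9, 115 and 77.2. The 4 receptor genes were thus highest in Dp16 by their means, the order that the labels give.

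Cell type markers differed strongly between WT and the 3-copy genotypes. All 8 neutrophil markers (median log2 fold 2.51), all 8 erythroid markers (1.77) and all 8 platelet markers (1.28) were higher with 3 copies, and all 8 B cell markers were lower (-0.62). The summed neutrophil markers were between 423 and 1921 CPM in WT, between 2849 and 9877 in Dp16 and between 3356 and 5506 in Dp16_2xIFNRs. The summed B cell markers were between 3530 and 5328 CPM in WT, between 2305 and 2828 in Dp16 and between 2405 and 3087 in Dp16_2xIFNRs. Of the endothelial and of the stromal markers, 4 of 8 and 5 of 8 were lower, and of the T cell and red pulp macrophage markers, 1 of 8 was lower and 2 of 8 were higher. Of the 8 pancreatic acinar markers 1 could be tested and 2 had no read, so the summed acinar level was at most 33.8 CPM in any animal, and the adipocyte markers summed to at most 76.2 CPM. When a score of the B cell markers, or scores of the erythroid and neutrophil markers, entered the fit, 0 of the 35 genes and 0 or 1 of all genes were called, and the median standard error of the 35 rose from 0.10 to 0.25 and 0.34 (log2). The genotype and these markers cannot be told apart in this design, so every fold given here is one of tissue RNA and not of RNA per cell.

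The mitochondrial genes were the group farthest above the copy ratio: 4 of 4 were higher, and 3 of 4 intervals lay above 1.5. Of interval genes 60.2% were higher and 17.7% had such an interval, and of all tested genes 19.2% were higher. Atp5o encodes OSCP, the subunit by which the stalk of ATP synthase holds the catalytic head. Its normalised level had a lowest, median and highest value of 83.8, 87.3 and 106 CPM in WT, of 166, 202 and 206 in Dp16 and of 167, 188 and 244 in Dp16_2xIFNRs. The lowest 3-copy animal lay far above the highest WT animal, and the 3-copy genotypes overlapped, with 2 Dp16_2xIFNRs animals above every Dp16 animal. The fold over both was 2.15 (95% interval 1.91 to 2.42, edgeR adjusted p = 1.59e-08).

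Atp5j encodes coupling factor 6, another part of the same stalk. Its level was 61.0, 63.6 and 74.4 CPM (lowest, median and highest) in WT, 112, 123 and 149 in Dp16 and 118, 131 and 165 in Dp16_2xIFNRs. No 3-copy animal overlapped WT, and WT replicate 2 stood above the other WT animals. The fold was 2.01 (1.80 to 2.24, edgeR adjusted p = 1.59e-08). Atp5j shares 397 exon bases with Gabpa on the opposite strand, and as it is not given in the sources used here whether reads were counted by strand, a part of its reads may be counted to neither or either gene.

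Mrpl39, of the large subunit of the mitochondrial ribosome, went from 30.7 ± 1.53 CPM (SD, n = 6) in WT to 56.1 ± 3.18 in Dp16 and 53.9 ± 4.58 in Dp16_2xIFNRs, a 1.79-fold level (1.64 to 1.96, edgeR adjusted p = 1.59e-08). It had the smallest spread of the 35 genes in WT, a coefficient of variation of 4.99%, and its groups did not overlap. Mrps6, of the small subunit, was at 6.63, 8.84 and 14.7 CPM in WT (lowest, median, highest), 12.7, 15.5 and 20.0 in Dp16 and 14.4, 16.5 and 18.7 in Dp16_2xIFNRs. The highest WT animal overlapped the 3-copy animals, 9 of 12 of which lay above it. The fold of Mrps6 was 1.72 (1.44 to 2.05, edgeR adjusted p = 4.52e-05).

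**Figure D2:**
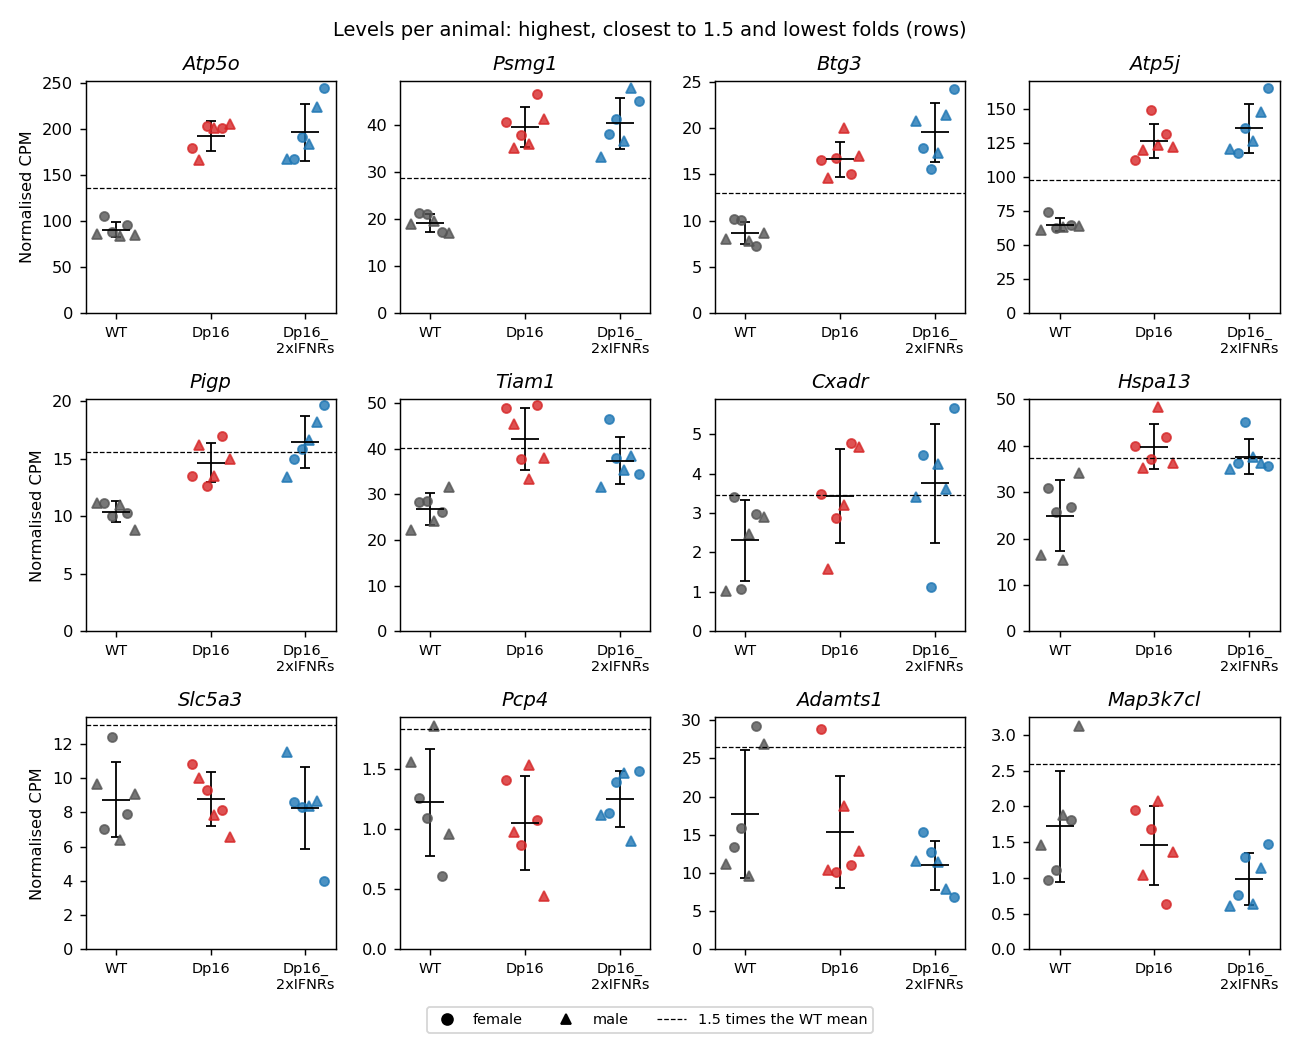
Normalised CPM of each animal for the 4 genes with the highest folds (top row), the 4 closest to the copy ratio (middle row) and the 4 with the lowest folds (bottom row); circles are females, triangles males, bars the mean with SD, and the dashed line is 1.5 times the WT mean. In the top row every 3-copy animal lies above the dashed line, in the middle row they scatter about it, and in the bottom row all lie below it but 1 Dp16 animal for Adamts1.

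Genes that fold proteins, remove them or edit ubiquitin were all higher over both 3-copy genotypes, 7 of 7, with folds from 1.15 to 2.08. The shares called higher were 60.2% of interval genes and 19.2% of all tested genes. In Dp16_2xIFNRs against WT 6 of 7 were higher, and Ttc3 (log2 fold 0.15) was not called. Psmg1, a chaperone that starts the assembly of the proteasome core, was at 17.0, 19.2 and 21.3 CPM in WT (lowest, median, highest), at 35.01, 39.2 and 46.6 in Dp16 and at 33.2, 39.7 and 47.8 in Dp16_2xIFNRs. Its lowest 3-copy animal was well above the highest WT animal. The fold was 2.08 (1.84 to 2.35, edgeR adjusted p = 3.98e-08). Cct8, the theta subunit of the CCT chaperonin and the most abundant of the 35 by counts, was at 199, 241 and 276 CPM in WT, at 411, 443 and 491 in Dp16 and at 417, 452 and 478 in Dp16_2xIFNRs. The animals of each 3-copy genotype lay close together and apart from WT, with a fold of 1.90 (1.73 to 2.07, edgeR adjusted p = 8.98e-09).

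Usp25, a ubiquitin protease, rose 1.76-fold (1.53 to 2.03, edgeR adjusted p = 5.11e-06), from 128 ± 13.8 CPM to 225 ± 13.8 in Dp16 and 224 ± 49.1 in Dp16_2xIFNRs (SD, n = 6). Hspa13, a relative of the HSP70 chaperones found in microsomes, was one of the genes closest to the copy ratio: 15.3, 26.3 and 34.2 CPM in WT (lowest, median, highest), 35.2, 38.5 and 48.4 in Dp16 and 35.1, 36.2 and 45.2 in Dp16_2xIFNRs. The groups did not overlap, although the gap between the highest WT animal and the lowest 3-copy animal was small, and the fold was 1.56 (1.28 to 1.90, edgeR adjusted p = 0.000922). Usp16, which takes ubiquitin off histone H2A, rose 1.38-fold (1.27 to 1.51, edgeR adjusted p = 6.98e-06), also without overlap.

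The ubiquitin ligases of the group were nearest to the WT level. Ltn1, or listerin, which marks the unfinished chains of stalled ribosomes, rose 1.24-fold (1.12 to 1.38, edgeR adjusted p = 0.00133), and Ttc3, a ligase acting on AKT, rose 1.15-fold (1.07 to 1.24, edgeR adjusted p = 0.00341). Both calls were lost in a limma-trend fit of log2(RPKM + 0.1), which leaves out the TMM scaling: Ltn1 then had a log2 fold of 0.19 (limma adjusted p = 0.0799) and Ttc3 of 0.08 (limma adjusted p = 0.281). TMM factors were between 1.02 and 1.08 in WT and between 0.925 and 1.02 in the other genotypes, and the RPKM fit moved the median of all genes to -0.13 (log2).

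RNA, nucleolar and cell division genes split into the highest and near the lowest folds. Of them 4 of 5 were higher, where 60.2% of interval genes and 19.2% of all tested genes were. Btg3, an antiproliferative protein of the BTG and TOB family, was at 7.22, 8.36 and 10.2 CPM in WT (lowest, median, highest), at 14.6, 16.6 and 20.0 in Dp16 and at 15.6, 19.3 and 24.2 in Dp16_2xIFNRs. Every 3-copy animal was above every WT animal, and the fold was 2.08 (1.78 to 2.44, edgeR adjusted p = 1.05e-06). Mis18a, which licenses centromeres to load the histone CENP-A, was at 23.1 ± 1.65 CPM in WT, 45.8 ± 8.41 in Dp16 and 46.3 ± 5.09 in Dp16_2xIFNRs (SD, n = 6), a 2.00-fold level (1.74 to 2.30, edgeR adjusted p = 6.72e-07) without overlap.

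Urb1, a nucleolar protein of ribosome assembly, rose 1.22-fold (1.08 to 1.39, edgeR adjusted p = 0.0119), and Scaf4, which binds RNA polymerase II and guards against early termination, rose 1.20-fold (1.06 to 1.36, edgeR adjusted p = 0.0199). The call for Scaf4 was lost without WT replicate 2 (log2 fold 0.23, edgeR adjusted p = 0.0564) or WT replicate 6 (0.24, edgeR adjusted p = 0.0549), and on log2(RPKM + 0.1) it and Urb1 were at 0.14 (limma adjusted p = 0.247) and 0.17 (limma adjusted p = 0.204). With the sample description codes as a block, Scaf4 was at 0.21 (edgeR adjusted p = 0.0582) and Urb1 at 0.18 (edgeR adjusted p = 0.164), and neither was called. Zbtb21, a zinc finger protein, was at 20.9 ± 1.501 CPM in WT, 21.8 ± 1.46 in Dp16 and 21.4 ± 2.88 in Dp16_2xIFNRs (SD, n = 6). Its fold of 1.03 (0.926 to 1.16, edgeR adjusted p = 0.676) lay wholly below the copy ratio with a narrow interval, and its sign changed with the scaling: it was -0.01 (log2) with upper quartile factors and -0.07 on log2(RPKM + 0.1).

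The amyloid precursor and the protease Bace2 were both higher over both 3-copy genotypes, and both calls were lost in some alternative fits. Bace2 was not called in Dp16 against WT (log2 fold 0.22). App had a lowest, median and highest level of 159, 190 and 246 CPM in WT, of 199, 271 and 348 in Dp16 and of 218, 240 and 283 in Dp16_2xIFNRs. The groups overlapped, with 5 of 12 animals above the highest WT animal, and the fold was 1.32 (1.14 to 1.52, edgeR adjusted p = 0.00369). On log2(RPKM + 0.1) App was at 0.28 (log2, limma adjusted p = 0.0686). Over both genotypes the App call was lost in 2 of 33 alternative fits without marker scores, both on RPKM, and the Bace2 call in 18. In Dp16_2xIFNRs against WT the App call was lost in 11 of 34. Bace2, a relative of the beta-secretase that cuts the amyloid precursor at another place, was at 15.2 ± 3.26, 17.7 ± 2.96 and 18.7 ± 1.73 CPM (SD, n = 6), a 1.20-fold level (1.04 to 1.40, edgeR adjusted p = 0.0424). The Bace2 call was lost when any of 12 libraries was left out: WT replicates 1, 2, 3 or 4, Dp16 replicates 1, 4, 5 or 6, or Dp16_2xIFNRs replicates 1, 3, 4 or 5. The values without each of them lay between the 0.21 without WT replicate 1 (edgeR adjusted p = 0.14) and the 0.28 without WT replicate 3 (edgeR adjusted p = 0.0594).

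Enzymes and transporters gave 3 of 5 higher, near the 60.2% of interval genes, where 19.2% of all tested genes were higher. Pigp, which takes part in the first step of making GPI anchors, lay closest of all 35 to the copy ratio: 8.77, 10.6 and 11.1 CPM in WT (lowest, median, highest), 12.6, 14.3 and 17.0 in Dp16 and 13.4, 16.3 and 19.6 in Dp16_2xIFNRs. No 3-copy animal overlapped WT, and the fold was 1.49 (1.299 to 1.72, edgeR adjusted p = 8.96e-05). C2cd2, a C2 domain protein, rose 1.63-fold (1.44 to 1.84, edgeR adjusted p = 5.65e-06) and Rwdd2b, an RWD domain protein, 1.40-fold (1.23 to 1.59, edgeR adjusted p = 0.00021). Hlcs, which attaches biotin to carboxylases, was at 28.5 ± 4.87, 31.2 ± 3.70 and 31.2 ± 3.80 CPM (SD, n = 6), a 1.10-fold level (0.960 to 1.26) that did not pass the test (edgeR adjusted p = 0.286).

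Slc5a3, which takes up myo-inositol, was near the WT level in each 3-copy genotype. Its level was 6.38, 8.48 and 12.4 CPM in WT (lowest, median, highest), 6.57, 8.74 and 10.8 in Dp16 and 4.01, 8.49 and 11.5 in Dp16_2xIFNRs. The genotypes overlapped almost fully, and no 3-copy animal exceeded the highest WT animal. The fold was 0.973 (0.760 to 1.25, edgeR adjusted p = 0.891), and its sign changed when WT replicate 3 (log2 fold 0.10), Dp16 replicate 6 (0.01) or Dp16_2xIFNRs replicate 6 (0.04) was left out. The RefSeq start of Slc5a3 is 14 bases from that of Mrps6 on the same strand, and they share 159 exon bases, so the upstream sequence printed for Mrps6 serves for both. From this shared start the Mrps6 model was at 1.72-fold and the Slc5a3 model at 0.973-fold, and the difference between these folds was not tested.

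Other pairs of neighbours that share bases also had unequal folds. C2cd2 (1.63-fold) and Zbtb21 (1.03-fold) share 86 exon bases on the same strand. Their models start at chr16:97962598 and chr16:97962622 on the minus strand, so the sequence printed for Zbtb21 is upstream of both. Pigp (1.49-fold) and Ttc3 (1.15-fold) start head to head and share 326 exon bases on opposite strands, and Cct8 (1.90-fold) and Usp16 (1.38-fold) share 192 on opposite strands. Btg3 (2.08-fold) and Cxadr share 695 on opposite strands, which is 9.39% of the exon bases of Cxadr, and Btg3 had a mean of 14.8 CPM where Cxadr had 3.15. The library kit was strand-specific, but the reads of such shared bases can be told apart only by a count that uses the strand.

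Signalling genes gave 3 of 6 higher, where 60.2% of interval genes and 19.2% of all tested genes were higher. Samsn1, an adaptor of lymphocyte and mast cell signalling, rose 1.64-fold (1.47 to 1.82, edgeR adjusted p = 1.37e-06), from 61.5 ± 3.93 CPM to 97.4 ± 6.90 in Dp16 and 104 ± 14.6 in Dp16_2xIFNRs (SD, n = 6), without overlap. Tiam1, which activates the small GTPase RAC, was at 22.1, 27.2 and 31.6 CPM in WT (lowest, median, highest), at 33.3, 41.6 and 49.5 in Dp16 and at 31.5, 36.6 and 46.5 in Dp16_2xIFNRs. Of the 12 animals with 3 copies 11 lay above the highest WT animal, and the fold was 1.48 (1.29 to 1.69, edgeR adjusted p = 8.09e-05). The kinase gene Hunk, at 1.59 ± 0.301, 2.75 ± 0.712 and 2.31 ± 0.648 CPM (SD, n = 6), was higher at 1.58-fold (1.21 to 2.06, edgeR adjusted p = 0.00769). The Hunk call was lost when the 4 libraries in which Gm42418, a gene model overlapping ribosomal RNA, took over 4% of reads were left out (log2 fold 0.56, edgeR adjusted p = 0.0542). It was also lost with the codes in the samples' descriptions, some of which are shared between animals, as a block (log2 fold 0.50, edgeR adjusted p = 0.083).

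The other signalling genes were sparse. Map3k7cl, a small protein resembling the end of the kinase TAK1, had the lowest fold of all: 0.968, 1.63 and 3.12 CPM in WT (lowest, median, highest), 0.630, 1.53 and 2.08 in Dp16 and 0.603, 0.947 and 1.48 in Dp16_2xIFNRs. No 3-copy animal exceeded the highest WT animal, 4 of 12 lay below the lowest, and the groups overlapped. The fold over both was 0.699 (0.457 to 1.07, edgeR adjusted p = 0.188), wholly below the copy ratio, and in Dp16_2xIFNRs against WT it was 0.575 (0.347 to 0.953, edgeR adjusted p = 0.0901). That comparison passed the threshold on log2(RPKM + 0.1) (log2 fold -0.80, limma adjusted p = 0.0456) and with the sample description codes as a block (-1.14, edgeR adjusted p = 0.0324).

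Pcp4, which binds calmodulin, was at 0.612, 1.17 and 1.86 CPM in WT, at 0.439, 1.03 and 1.53 in Dp16 and at 0.898, 1.26 and 1.48 in Dp16_2xIFNRs (lowest, median, highest). These ranges lay over one another, and the fold was 0.943 (0.634 to 1.40, edgeR adjusted p = 0.851), with a sign that changed in several of the alternative fits. Sh3bgr was at a fold of 1.14 (0.807 to 1.61, edgeR adjusted p = 0.593), an interval that held both no difference and the copy ratio.

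Of the adhesion and matrix genes 1 of 6 was higher, close to the 19.2% of all tested genes and below the 60.2% of interval genes. Adamts1, a protease of the extracellular matrix, was at 9.60, 14.6 and 29.3 CPM in WT (lowest, median, highest), at 10.1, 11.9 and 28.8 in Dp16 and at 6.81, 11.5 and 15.4 in Dp16_2xIFNRs. Its animals spread over a wide range in WT and Dp16, with coefficients of variation of 47.2% and 47.96%, the largest of the 35 genes in these genotypes. The fold was 0.735 (0.488 to 1.11, edgeR adjusted p = 0.24), below the copy ratio. Adamts5, the next gene on the chromosome and also an aggrecanase, was at 20.5 ± 4.82, 21.8 ± 5.48 and 21.0 ± 3.66 CPM (SD, n = 6), a fold of 1.04 (0.867 to 1.26, edgeR adjusted p = 0.762) whose sign changed with upper quartile factors, on log2(RPKM + 0.1), and without WT replicate 2 or Dp16 replicate 1.

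Cxadr, the receptor for coxsackieviruses and adenoviruses, lay near the copy ratio but did not pass the test. Its level was 1.02, 2.69 and 3.41 CPM in WT (lowest, median, highest), 1.59, 3.34 and 4.78 in Dp16 and 1.13, 3.93 and 5.66 in Dp16_2xIFNRs. The groups overlapped, with 7 of 12 animals above the highest WT animal, and the fold was 1.56 (0.991 to 2.45, edgeR adjusted p = 0.121). Without Dp16_2xIFNRs replicate 3, its lowest animal there, the log2 fold was 0.74 and passed the test (edgeR adjusted p = 0.0334).

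Eva1c, a receptor for the guidance protein SLIT, was called at 1.59-fold (1.13 to 2.23, edgeR adjusted p = 0.0293) from 1.64 ± 0.463, 2.96 ± 1.08 and 2.35 ± 0.921 CPM (SD, n = 6). That call was lost without any of WT replicates 1, 2, 5 or 6, Dp16 replicate 6 or Dp16_2xIFNRs replicate 3, with log2 folds between 0.57 (without WT replicate 2, edgeR adjusted p = 0.0795) and 0.68 (without WT replicate 5, edgeR adjusted p = 0.0515). It was lost as well with the sample description codes as a block (0.67, edgeR adjusted p = 0.0544). Jam2, of endothelial junctions, was at 14.4 ± 3.28, 17.9 ± 3.27 and 15.5 ± 2.24 CPM (SD, n = 6). Its fold was 1.15 (0.958 to 1.39, edgeR adjusted p = 0.232), and it passed the test without WT replicate 5 (log2 fold 0.34, edgeR adjusted p = 0.0394). Cyyr1, of unclear function, was at a fold of 1.09 (0.856 to 1.40, edgeR adjusted p = 0.605).

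Endothelial and stromal markers were lower with 3 copies. The summed endothelial markers were between 486 and 674 CPM in WT, between 354 and 416 in Dp16 and between 358 and 434 in Dp16_2xIFNRs, so that all 3-copy animals lay below all WT animals. The summed stromal markers were between 765 and 1006 CPM in WT, between 449 and 792 in Dp16 and between 482 and 697 in Dp16_2xIFNRs. With a score of each list as a term in the fit, the log2 fold of Jam2 was 0.84 ± 0.18 (SE, edgeR adjusted p = 0.0159) in place of 0.21, and that of Cyyr1 was 0.92 ± 0.24 (edgeR adjusted p = 0.0337) in place of 0.13. The log2 fold of Adamts5 was 0.50 ± 0.21 (edgeR adjusted p = 0.162), that of Adamts1 was 0.11 ± 0.50 (edgeR adjusted p = 0.922) and that of App was 0.70 ± 0.16 (edgeR adjusted p = 0.0226). With erythroid and neutrophil scores the log2 folds were -0.53 for Jam2, -0.76 for Cyyr1, -0.11 for Adamts5, -0.40 for Adamts1 and -0.30 for App. With the B cell score they were 0.01, -0.04, 0.24, -0.82 and 0.15 in that order. None of them passed the test. Marker scores and genotype cannot be told apart here, so these fits do not settle the folds. With endothelial and stromal scores 16 of the 35 genes were higher. Of all 18634 genes 1075 were called, and of the 113 interval genes 40, in place of 6830 and 68. In the same fit 4 intervals in place of 14 lay below the copy ratio, while the median standard error of the 35 was 0.18 in place of 0.10.

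**Figure D3:**
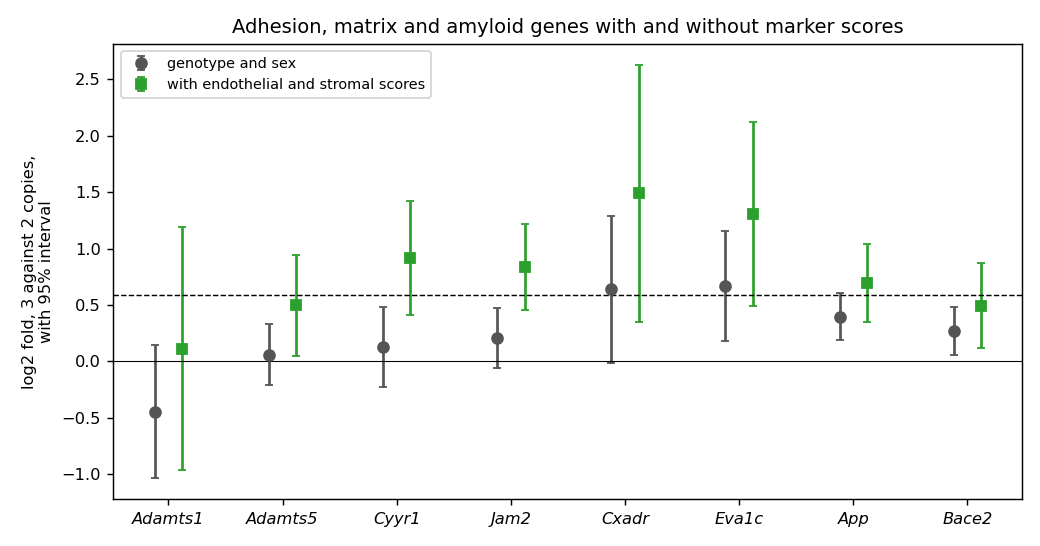
Log2 fold of the 6 adhesion and matrix genes, App and Bace2 at 3 against 2 copies with 95% intervals, from the fit with genotype and sex (grey circles) and from the fit that also holds scores of endothelial and stromal markers (green squares); the dashed line is log2 of 1.5. The value of every one of the 8 genes is higher with these scores, and the intervals are wider. Fits with erythroid and neutrophil or with B cell scores are not drawn. In both of them Jam2, Cyyr1, Cxadr, App and Bace2 had lower values than with genotype and sex. Eva1c had higher ones, and Adamts1 and Adamts5 moved either way.

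Where a gene's product works in a complex or a known family, its fold was set beside those of partners encoded outside the interval. Subunits of several complexes rose on other chromosomes too. Of 17 other ATP synthase genes 15 were higher and 2 lower, with a median log2 fold of 0.48, and of 75 other mitochondrial ribosome genes 69 were higher and 0 lower, with a median of 0.37. By smallest p, the partners were led by Atp5k (0.65) and Atp5g1 (0.61) and by Mrpl18 (0.72) and Mrpl34 (0.54). The 2 lower ones, named after their values were seen, were the mitochondrially encoded mt-Atp8 (-0.46) and mt-Atp6 (-0.30). These counts stand beside the 19.2% of all genes that were higher.

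Atp5o and Atp5j each exceeded all 17 partners in fold, and Mrpl39 and Mrps6 each exceeded all 75. In each library the level relative to the mean of the partners was taken on the log2 scale. Relative to partners Atp5o was at 1.65-fold over WT, Atp5j at 1.54-fold, Mrpl39 at 1.36-fold and Mrps6 at 1.32-fold. All 12 animals with 3 copies lay above the highest WT animal on this ratio for Atp5o, Atp5j and Mrpl39, and 0 of 12 did for Mrps6, whose WT animals spread from -2.05 to -1.01. The mean of the 17 ATP synthase partners includes mt-Atp8 and mt-Atp6, which were lower, and this raises the ratios of Atp5o and Atp5j. A ratio to the other ATP synthase partners alone was not taken.

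The chaperonin and proteasome assembly lists gave like pictures. Of the 7 other CCT genes 6 were higher, with a median log2 fold of 0.28, led by Tcp1 (0.41) and Cct7 (0.39), and Cct8 at 0.92 exceeded all 7. Relative to them Cct8 was at 1.55-fold, and its ratio was tight: 0.15 ± 0.03 in WT, 0.78 ± 0.07 in Dp16 and 0.78 ± 0.04 in Dp16_2xIFNRs (log2, SD, n = 6). Of the 4 other proteasome assembly genes 3 were higher, with a median of 0.41, and Psmg1 at 1.06 exceeded all 4 and was at 1.63-fold relative to them. For both Cct8 and Psmg1 all 12 animals with 3 copies lay above the highest WT animal on the ratio.

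**Figure D4:**
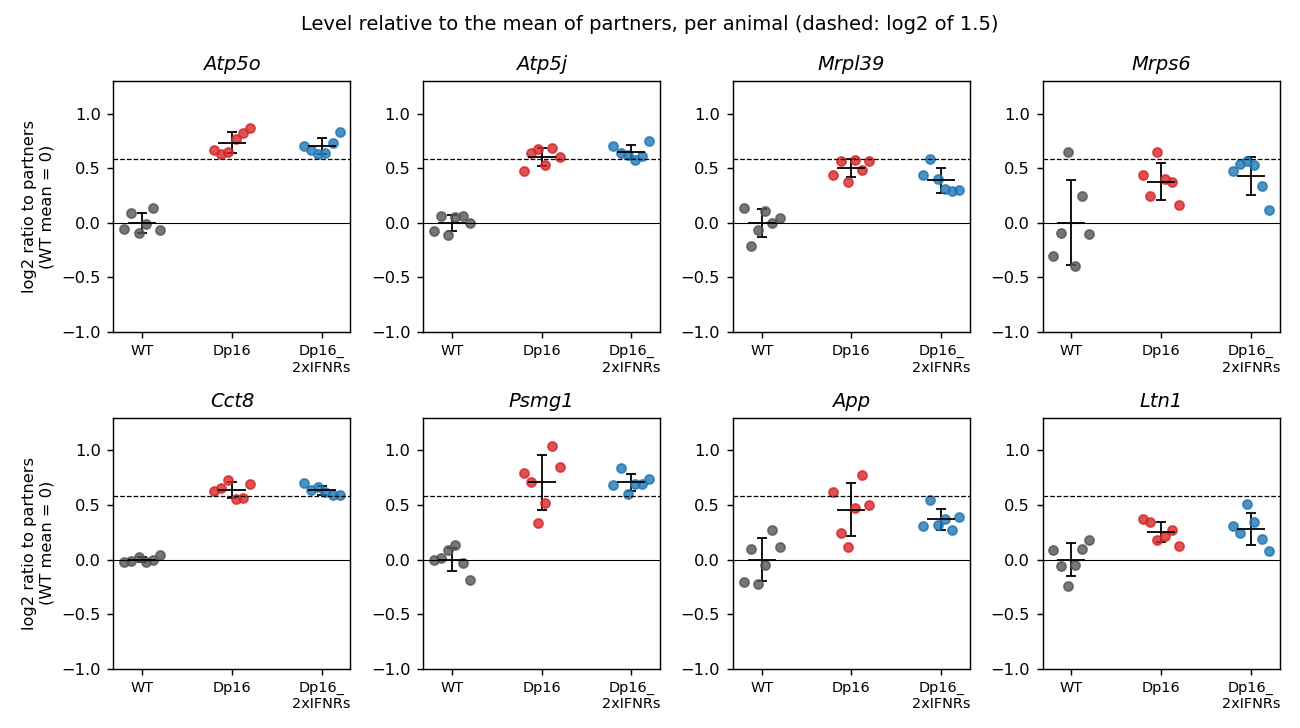
Log2 level of 8 genes relative to the mean of their partners encoded elsewhere, per animal, with the WT mean set to 0; bars are the mean with SD (n = 6) and the dashed line is log2 of 1.5. In the 3-copy genotypes every animal lies above the dashed line for Atp5o. Atp5j, Cct8 and Psmg1 lie on both sides of it and mostly above, Mrpl39, App and Ltn1 lie mostly below it, and Mrps6 overlaps WT. The partners of Atp5o and Atp5j include mt-Atp8 and mt-Atp6, which were lower.

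Btg3 differed from its relatives in direction. Of the 4 tested genes of its family 3 were lower, with a median log2 fold of -0.36, led by Btg1 (-0.38) and Tob2 (-0.45), while Btg3 was at 1.06. Relative to them Btg3 was at 2.55-fold, with all 12 animals above WT. The family members are relatives and not partners of a complex.

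In the other lists reported here fewer of the partners were called. The 12 genes that process the amyloid precursor or resemble it had a median log2 fold of -0.04, with Adam10 higher (0.33) and Adam17 lower (-0.23), and App at 0.40 exceeded all 12 and was at 1.33-fold relative to them. Of the 7 ribosome quality control genes 2 were higher, Hbs1l (0.37) and Pelo (0.35), with a median of -0.06, and Ltn1 was at 1.20-fold relative to them. Of the 5 other genes of the GPI step 2 were higher, Piga (0.75) and Pigq (1.18), and Pigp was at 1.09-fold relative to the list. Of 6 biotin enzymes Pcx was higher (0.78) and Acacb lower (-0.60), and Hlcs was at 1.13-fold relative to them.

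Of 4 junction genes 0 were called by edgeR, with the smallest adjusted p at 0.0822 for Clmp, and relative to them Jam2 was at 1.24-fold and Cxadr at 1.68-fold. Of 5 ADAMTS genes 2 were lower, Adamts9 (-0.52) and Adamts20 (-1.42), with a median of -0.52. Relative to those 5, Adamts5 was at 1.45-fold and Adamts1 at 1.06-fold, though their own levels in tissue were near or below WT. On that ratio 4 of 12 animals for Adamts5 and 1 of 12 for Adamts1 lay above the highest WT animal. The mean of the 5 gives each the same weight, also Adamts20 and Adamts15 (-0.52), whose log2 folds had standard errors of 0.51 and 0.52.

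**Figure D5:**
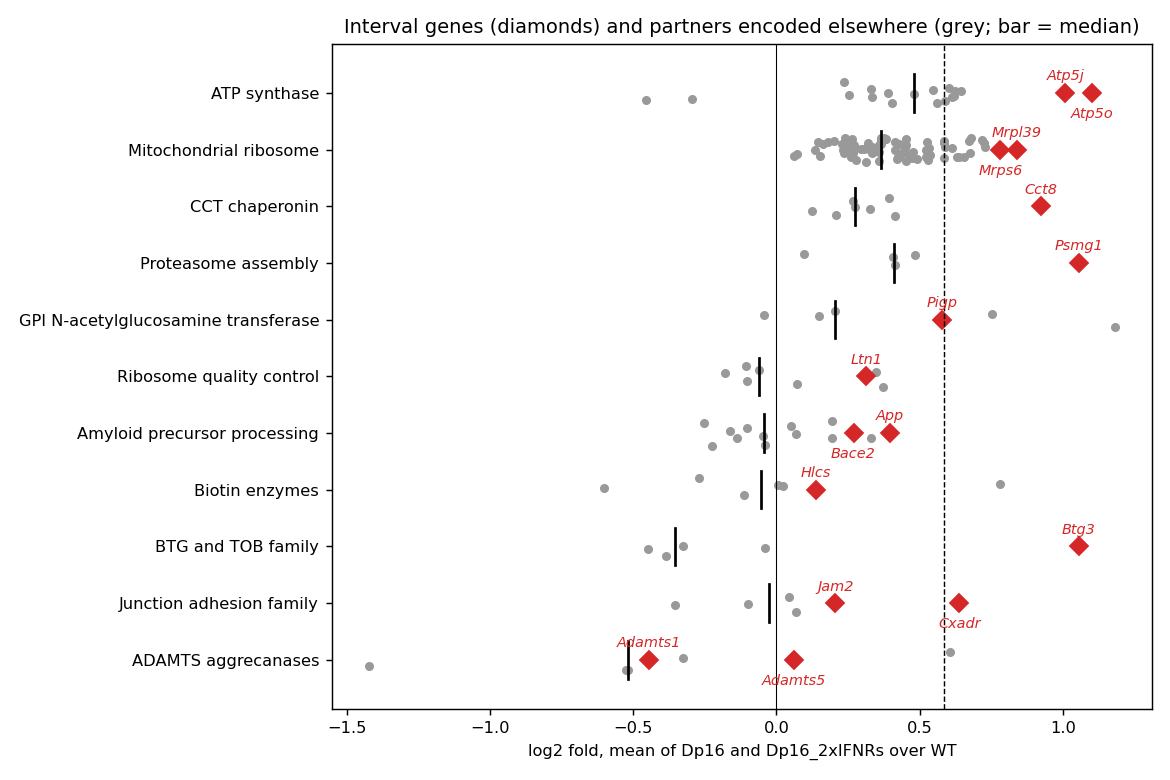
Log2 fold at 3 against 2 copies of the interval genes (red diamonds) and of their partners or relatives encoded elsewhere (grey points, with the median as a black bar); the dashed line is log2 of 1.5. The diamonds of Atp5o, Atp5j, Mrpl39, Mrps6, Cct8, Psmg1, App, Btg3, Jam2 and Cxadr stand right of all grey points of their row.

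No gene of the 35 was called between the genotypes that differ in interferon receptor copies. Between Dp16_2xIFNRs and Dp16, 0 of 35 were called by edgeR in either direction, 0 had an unadjusted p below 0.05, and DESeq2 called 0, where 0% of all genes were higher and 0.0215% lower. The median log2 fold was -0.00. The intervals were narrow for abundant genes, such as Cct8 (0.915 to 1.12) and Usp16 (0.923 to 1.12), and wide for sparse ones, such as Map3k7cl (0.410 to 1.12) and Pcp4 (0.7502 to 1.88).

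No gene was called for sex either: edgeR called 0 of 35 for sex and 0 of 35 for an interaction of sex with Dp16 or with Dp16_2xIFNRs, with 3, 0 and 1 at an unadjusted p below 0.05, while 48 of all genes were called for sex. The other tools were not run on these terms.

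Among the 35 genes the folds varied with abundance. Spearman's rho of the log2 fold with the mean log2 RPKM, a level per length, was 0.66 over the 35 genes, and it was -0.24 with the position along the chromosome and -0.23 with the length of the gene. These are descriptions across genes that share all libraries, and the more abundant genes have the smaller errors. The coefficient of variation between animals had a median over the 35 genes of 14.1% in WT, 12.7% in Dp16 and 13.5% in Dp16_2xIFNRs. Per length, Atp5o (189 RPKM on average), Cct8 (156) and Atp5j (96.6) had the highest levels, and Hunk (0.402 RPKM), Cxadr (0.443) and Slc5a3 (0.790) the lowest.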

How the data were processed

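Spleen poly(A) libraries were made with a strand-specific kit, per the labels' protocols. Per the submitters' processing notes the tools included HISAT2 (2.1.0) and HTSeq (0.6.1) with the build GRCm38, and no strand setting is given. The deposited counts are the authors' raw read counts per gene of GENCODE vM24, and the deposited RPKM values equal those counts over library total and gene length (checked in 11538 genes). A count of 0 allows 3 counts, at most 0.0882 CPM in any library, which covers counting error only.

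Counts were filtered with filterByExpr, scaled by TMM and fitted with edgeR 4.0.16 (quasi-likelihood, robust; R 4.3.3) on all 18 libraries with genotype and sex as terms; printed CPM are TMM-normalised, but the limit of 1 CPM used library totals. The threshold for a call was 0.05 on p adjusted by Benjamini-Hochberg over 18634 genes, and intervals are 95% from the fit's t quantile. Labels do not say whether animals were littermates. On simulated counts for 3 against 2 copies, 44.5% of 146 genes changed 1.5-fold were called and 96.6% of their intervals held the true fold. In that simulation 17908 genes were left unchanged, while 6830 of 18634 were called in these data. It therefore cannot vouch for the intervals under so broad a shift. Positions are from GENCODE vM21 (GRCm38), matched for 99.6% of gene models, and upstream sequences from RefSeq. The named genes are all 35, with values per genotype for the 4 highest and lowest folds, the 4 closest to 1.5 and examples of each role group; partners are named by smallest p, and the partner list of Mis18a is not reported here. The genes, lists and tests were chosen with earlier results of these data known. DESeq2 1.42.0, limma 3.58.1, other scalings and filters, blocks by sample number or description code, marker scores and leaving out libraries were tried as alternatives.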

Additional observations from a re-analysis of the deposited data

Results flagged for a closer look

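In 3 of 105 groups of 6 animals (35 genes in 3 genotypes) the highest animal stood apart from the other 5 by more than 0.625 of the group's range. Chance gives such a gap, at the highest or at the lowest animal, in about 1 in 20 groups. Atp5j in WT replicate 2 was at 74.4 CPM, where the next WT animal was at 65.1. Adamts5 in Dp16 replicate 1 was at 32.2 CPM, where the next was at 22.4, and without that animal its log2 fold over both 3-copy genotypes was -0.0019. Hspa13 in Dp16_2xIFNRs replicate 3 was at 45.2 CPM, where the next was at 37.6.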

How the results depend on the processing

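Of the 24 genes higher over both 3-copy genotypes, 16 stayed called in each of 33 alternative fits without marker scores, and App, Bace2, Eva1c, Hunk, Ltn1, Scaf4, Ttc3 and Urb1 were lost in at least 1. Leaving out 1 library gave 21 to 24 higher genes over both genotypes (21 to 23 in Dp16, 18 to 21 in Dp16_2xIFNRs), 13 to 15 intervals below and 7 to 9 above the copy ratio, and medians of 0.47 to 0.52 (0.45 to 0.54 and 0.44 to 0.50). Medians (log2) in Dp16, Dp16_2xIFNRs and both were 0.37, 0.33 and 0.36 on log2(RPKM + 0.1), 0.32, 0.17 and 0.26 on log2(RPKM + 1), with 23 intervals below the ratio, 0.64, 0.58 and 0.62 with erythroid and neutrophil scores, and 0.66, 0.64 and 0.63 with endothelial and stromal scores. Higher genes numbered 0, 0 and 0 with erythroid and neutrophil scores and with the B cell score, and 13 in Dp16 with endothelial and stromal scores; 4 intervals lay below the ratio in each of these fits, and 0 above in the first 2. In Dp16_2xIFNRs against WT, 1 gene, Map3k7cl, was lower at the looser threshold of 0.1 (edgeR adjusted p = 0.0901), and 1, again Map3k7cl, at 0.05 on log2(RPKM + 0.1) (limma adjusted p = 0.0456), log2(RPKM + 1) (0.0444) and with description codes as blocks (edgeR, 0.0324). Adamts1 reached an adjusted p between 0.0883 and 0.0975 there in 6 alternatives. The cause of these shifts was not tested, beyond the larger errors with scores.

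Signs reversed (log2, both genotypes unless named) with erythroid and neutrophil scores for App (-0.30; Dp16 -0.27, Dp16_2xIFNRs -0.34), Bace2 (-0.19; Dp16_2xIFNRs -0.13), Cxadr (-1.52), Adamts5 (-0.11), Map3k7cl (1.21), Sh3bgr (-0.12), Cyyr1 (-0.76), Jam2 (-0.53), Slc5a3 (0.65) and Pcp4 (1.26); with the B cell score for Hspa13 (-0.15; Dp16 -0.14, Dp16_2xIFNRs -0.17), Bace2 (-0.15; Dp16_2xIFNRs -0.10), Cxadr (-0.57), Sh3bgr (-0.55), Cyyr1 (-0.038), Slc5a3 (0.39) and Pcp4 (0.77); and with endothelial and stromal scores for Adamts1 (0.11). Near zero, Adamts5 was at -0.0023 with upper quartile factors, -0.052 and -0.036 on RPKM, -0.019 without WT replicate 2 and -0.0019 without Dp16 replicate 1. Zbtb21 was at -0.014 with upper quartile factors, -0.070 and -0.055 on RPKM, and -0.011 with code blocks. Slc5a3 was at 0.10, 0.01 and 0.04 without WT replicate 3, Dp16 replicate 6 and Dp16_2xIFNRs replicate 6. Pcp4 was at 0.023 with limma voom, 0.16 without the 4 libraries rich in Gm42418, 0.022 without Dp16 replicate 6, and between -0.24 (without WT replicate 5) and 0.065 (without WT replicate 4) over the libraries left out.

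Sample numbers did not pair the animals: same-numbered libraries of different genotypes correlated at a mean of 0.019 (18 pairs, -0.132 to 0.201), others at -0.00377. With a replicate block 22, 21 and 25 genes were higher in Dp16, Dp16_2xIFNRs and both, with Cxadr added (0.69, edgeR adjusted p = 0.0288). Libraries of different genotypes with the same description code correlated at a mean of 0.0527 (7 pairs), and with the codes as blocks 21, 19 and 20 genes were higher; Scaf4, Eva1c, Urb1 and Hunk were lost over both. For genes under about 4 CPM (Cxadr, Eva1c, Hunk, Sh3bgr, Map3k7cl and Pcp4), low counts and wide intervals limit what can be said.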
